A study of Mus musculus with 8 samples.

Results

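The vascular endothelial growth factor (VEGF) family of ligands, receptors and co-receptors was followed in cultured mouse liver endothelial cells (ECs) labelled dKO or WT, in a study that deleted the ETS transcription factor genes Erg and Fli1, with and without inflammatory cytokines. Its members were taken by name: the rows of the deposited table of gene counts whose Ensembl identifiers map to Vegfa, Vegfb, Vegfc, Vegfd, Pgf, Kdr, Flt1, Flt4, Nrp1 and Nrp2. All 10 were present among the 52636 genes of the table, and all 10 passed the filter on low counts that left 15698 genes for testing.

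The 8 polyadenylated-RNA libraries formed 4 groups of 2: dKO with interleukin 1 beta and tumour necrosis factor alpha (Il1b + Tnfa, called cytokines here), dKO without them (Control), WT with cytokines and WT without. All cells came from the liver and were grown in EC medium, and live cells negative for CD45 and positive for CD31 and VE-cadherin were sorted. The sample labels do not spell out dKO. The study design names deletion of Erg and/or Fli1, set off in culture by 48 hours of 4-hydroxytamoxifen (4-OHT), with harvest at 7 days and, in the cytokine groups, 16 hours after adding both cytokines, whereas the treatment label places 4-OHT in the mice. The sources used here name no Cre driver for the deletion and do not say whether WT cells carried Cre. Whether replicates derive from different mice or dishes is not stated, so p-values measure only how far these libraries spread, which may be technical.

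VEGF ligands are secreted dimers that bind receptor tyrosine kinases on ECs. Vegfa signals mainly through Kdr (VEGFR2) in blood vessels, Vegfc and Vegfd act on Flt4 (VEGFR3), the main receptor of lymphatic vessels, and Vegfb and Pgf bind Flt1 (VEGFR1), which holds ligand tightly, signals weakly and also occurs as a secreted decoy. The neuropilins Nrp1 and Nrp2 have short cytoplasmic tails and present ligand to these receptors, and liver sinusoidal ECs are known to express Kdr, Flt4 and both neuropilins.

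Because the deleted factors recognise the ETS core GGAA, the 250 bases before the annotated start of 3 members are shown, with each GGAA or its reverse complement TTCC in capitals. They stand for the 2 ligands with the highest levels in dKO cells and the receptor with the lowest level in dKO replicate 1, and were taken from RefSeq promoters of build GRCm38.p6, in which all 10 members were matched. The windows are chr17:46032378-46032627 on the minus strand for Vegfa, chr8:54077282-54077531 on the plus strand for Vegfc and chr5:75978456-75978705 on the minus strand for Kdr.
Vegfa: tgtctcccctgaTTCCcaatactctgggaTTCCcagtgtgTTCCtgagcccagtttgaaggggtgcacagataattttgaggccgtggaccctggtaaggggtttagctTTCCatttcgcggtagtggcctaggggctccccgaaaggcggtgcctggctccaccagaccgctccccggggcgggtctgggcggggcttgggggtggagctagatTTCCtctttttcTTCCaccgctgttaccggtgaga
Vegfc: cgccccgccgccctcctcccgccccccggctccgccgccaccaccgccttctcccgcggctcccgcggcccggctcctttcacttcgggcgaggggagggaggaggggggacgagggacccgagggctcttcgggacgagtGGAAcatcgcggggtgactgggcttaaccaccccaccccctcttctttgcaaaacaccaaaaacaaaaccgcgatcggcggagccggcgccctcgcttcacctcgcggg
Kdr: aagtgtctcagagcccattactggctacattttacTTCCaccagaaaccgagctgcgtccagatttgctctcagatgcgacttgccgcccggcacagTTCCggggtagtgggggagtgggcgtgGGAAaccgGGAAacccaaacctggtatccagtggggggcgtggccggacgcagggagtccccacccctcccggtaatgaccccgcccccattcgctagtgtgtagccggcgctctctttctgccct

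The Vegfa window held 6 copies of the core, Kdr, Flt1 and Nrp1 held 4 each, Vegfd held 3, Flt4 held 2, Vegfb, Vegfc and Nrp2 held 1 each and Pgf held 0, counting both strands. Such a core stood in 93.4% of the 27025 promoter windows of the same length, with a median of 3, so its presence does not set the members apart. The longer ETS words CCGGAAG and CAGGAAG, which contain the core, the hypoxia word ACGTG and an NF-kB site motif were in none of the 10 windows, against 7.07%, 10.5%, 16.5% and 1.41% of all windows. In only 10 windows the absence of words this uncommon does not set the members apart either. The windows precede RefSeq starts, which differ from the gene spans given below. Those of Pgf, Flt4 and Nrp1 lie wholly inside these spans, and those of Vegfd, Nrp2 and Kdr partly. The counts are matches of letters in 1 window per gene and say nothing of binding.

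Total counts were 23009062 to 26944030 per library. Erg, which the study design names for deletion, had 34.7 and 90.2 CPM in dKO cells with cytokines and 40.1 and 91.3 CPM in dKO cells without, against 208 and 201 CPM in WT cells with cytokines and 196 and 186 CPM in WT cells without, where CPM is the count scaled to the library total after adjustment between libraries. Fli1 had 12.4 and 35.2 CPM in dKO cells with cytokines and 21.9 and 62.5 CPM in dKO cells without, against 91.5 and 96.4 CPM in WT cells with cytokines and 161 and 177 CPM in WT cells without. Both genes were lower in every dKO library than in any WT library, but neither difference passed the test (adjusted p of edgeR's quasi-likelihood test between 0.0538 and 0.0864), and gene counts do not separate reads of deleted exons from the rest. In both treatments dKO replicate 2 had 2.28 to 2.85 times the Erg and Fli1 level of dKO replicate 1. The summed level of 11 endothelial markers was 1404 and 2343 CPM in dKO cells with cytokines and 1393 and 2900 CPM in dKO cells without, against 5348 and 5014 CPM in WT cells with cytokines and 6994 and 6770 CPM in WT cells without, and none of the 11 was at 0 in any library. Summed stellate and fibroblast markers (16 genes) were 13402 to 19189 CPM in dKO libraries and 9221 to 10858 CPM in WT libraries, mostly Dcn, a collagen-binding proteoglycan. Some single markers differed more than the sum. The fibroblast receptor gene Pdgfra had 615 to 1174 CPM in dKO libraries and 2.07 to 32.2 CPM in WT libraries. The collagen gene Col3a1 had 332 to 1831 CPM in dKO libraries and 24.1 to 44.7 CPM in WT libraries, and Col1a2 had 163 to 230 CPM in dKO libraries and 3.84 to 8.32 CPM in WT libraries. Of the 13 tested stellate and fibroblast markers 6 rose and 0 fell in dKO cells with cytokines, and 6 rose and 1 fell without. Their median log2 fold changes were 1.58 with cytokines and 2.61 without. Rgs5 had 2.99 and 0.873 CPM in untreated dKO cells, against 6.76 and 9.84 CPM in untreated WT cells. Acta2 had 2.14 and 6.27 CPM in dKO cells with cytokines, against 6.17 and 6.16 CPM in WT cells with cytokines. Des, Lrat, Reln, Hand2, Cspg4 and Dpt were at most 0.956 CPM in any library. Of the 11 endothelial markers 0 rose, and 3 fell with cytokines and 4 without. Of all tested genes 18.6% rose and 15.4% fell with cytokines, and 13.4% rose and 9.66% fell without. Summed hepatocyte markers (10 genes) were 166 to 309 CPM in dKO libraries, with Ahsg the highest at 81.8 to 226 CPM, and 3.13 to 5.53 CPM in WT libraries, while Alb, which defines hepatocytes, was at most 0.0909 CPM. Only 3 of them were tested, Ahsg, Hp and Trf, and 3 rose and 0 fell in dKO cells in each treatment. Their median log2 fold changes were 5.14 with cytokines and 6.11 without. Hp had 56.9 to 61.1 CPM in dKO libraries and 0.591 to 2.67 CPM in WT libraries. Summed cholangiocyte and mesothelial markers (11 genes) were 63.1 to 270 CPM in dKO libraries and 5.78 to 17.9 CPM in WT libraries. Spp1 was the highest of them in dKO libraries at 25.6 to 244 CPM, while Krt7, Krt8, Epcam and Upk3b were at most 0.337 CPM in any library. Of the 6 tested, 3 rose and 0 fell in dKO cells in each treatment. The leukocyte markers (10 genes), with Ptprc at 0 in 7 of 8 libraries, were 4.32 to 10.1 CPM in dKO libraries and 5.8 to 7.1 CPM in WT libraries. The endothelial, stellate, hepatocyte and cholangiocyte sums moved with genotype, and their part in the differences between dKO and WT cells was not tested.

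The ligand genes Vegfa, Vegfc and Vegfd were higher in dKO than in WT cells in both treatments, the co-receptor gene Nrp1 was lower, and Kdr and Flt4 were far lower in dKO replicate 1 and less so in dKO replicate 2. Without cytokines 3 members rose and 1 fell among the 10 tested, at an adjusted p under 0.05, where 13.4% of all tested genes rose and 9.66% fell (23% in either direction). With cytokines the counts were again 3 and 1, where 18.6% of all tested genes rose and 15.4% fell (34% in either direction). The dKO and WT libraries did not overlap for 4 members that were higher and 5 that were lower without cytokines, against 35.9% and 34.1% of all tested genes, and for 4 and 4 with cytokines, against 37.2% and 36.2%. The median log2 fold change of the members was -0.53 without cytokines and -0.50 with them, beside 0.02 and 0.01 over all tested genes. In sorted but bulk samples, fewer cells of a type and less RNA per cell cannot be told apart, and this holds for each level given here.

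**Figure D1:**
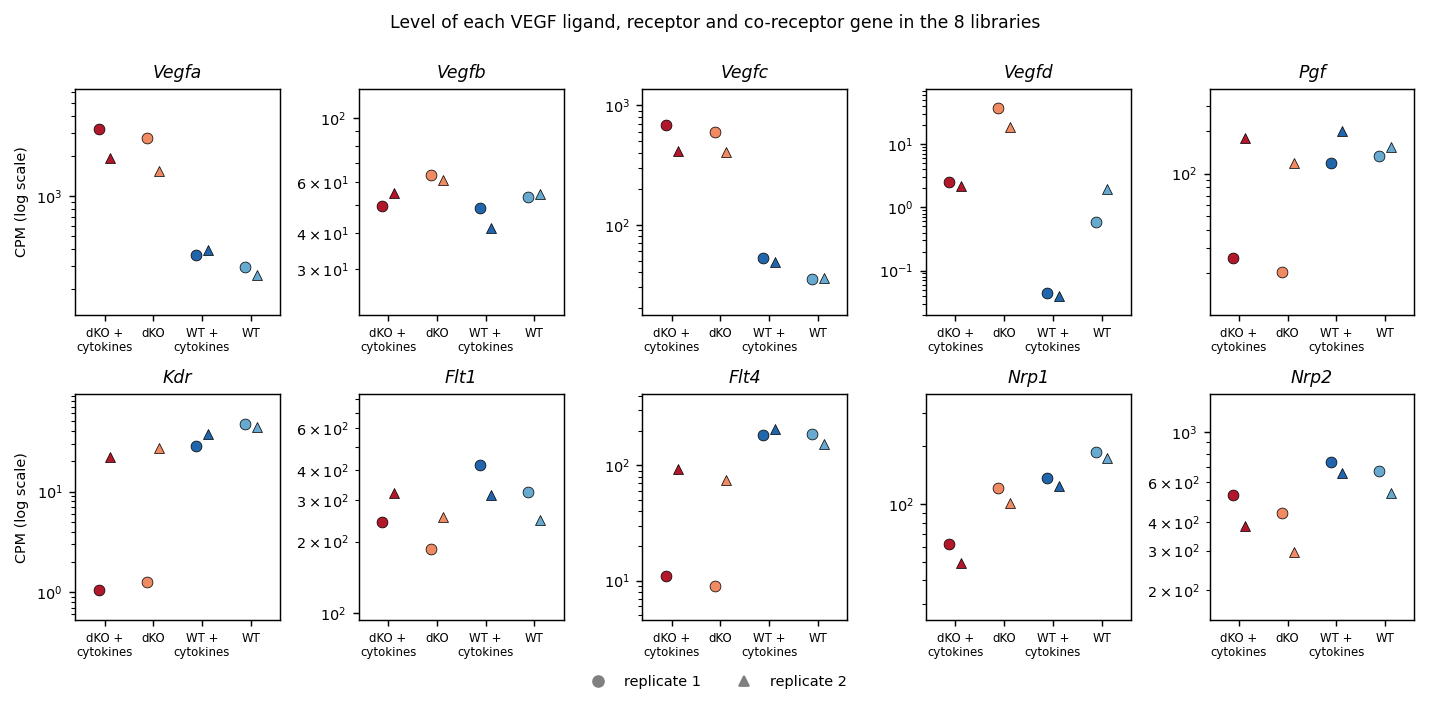
Level of each of the 10 members in CPM (log axis, own range in each panel) in the 4 groups, with 1 point per library; circles are replicate 1 and triangles replicate 2. Vegfa, Vegfc and Vegfd lie higher in all 4 dKO libraries than in any WT library of the same treatment, and Kdr, Flt4 and Pgf lie lower in dKO replicate 1 than in dKO replicate 2.

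Vegfa (ENSMUSG00000023951, minus strand of chromosome 17, 46016993 to 46032369), the chief ligand of Kdr, had 3206 and 1931 CPM in dKO cells with cytokines, against 363 and 392 CPM in WT cells with cytokines. Without cytokines it had 2735 and 1548 CPM in dKO cells, against 296 and 256 CPM in WT cells. All 4 dKO libraries stood above all 4 WT libraries, and in both treatments dKO replicate 1 was the higher of its pair. The level was 6.81-fold higher in dKO cells with cytokines (log2 fold change 2.77 ± 0.35 (SE), adjusted p = 0.00384, edgeR) and 7.75-fold higher without (2.96 ± 0.35, adjusted p = 0.00485). The call held when each of the 8 libraries was left out in turn, with log2 fold changes of 2.35 to 3.10 with cytokines and 2.48 to 3.31 without. It held narrowly in some of these fits, with a highest adjusted p of 0.0376 with cytokines and 0.0484 without (edgeR).

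Vegfc (ENSMUSG00000031520, plus strand of chromosome 8, 54077606 to 54187096), the ligand of Flt4 that drives lymphatic growth, had 691 and 417 CPM in dKO cells with cytokines, against 52.5 and 49.2 CPM in WT cells with cytokines. Untreated dKO cells had 600 and 405 CPM, against 35.1 and 36.2 CPM in untreated WT cells. The groups did not overlap in either treatment, and again dKO replicate 1 was the higher of its pair. Vegfc was 10.9-fold higher in dKO cells with cytokines (3.45 ± 0.30 on the log2 scale, adjusted p = 0.00172, edgeR) and 14.1-fold higher without (3.82 ± 0.30, adjusted p = 0.00163). No left-out library ended either call, and the log2 fold changes then ran from 3.03 to 3.77 and from 3.50 to 4.07.

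Vegfd (ENSMUSG00000031380, plus strand of chromosome X, 164373378 to 164402650), the second ligand of Flt4 in the mouse, was a low-count gene in WT cells. It had 55 and 50 counts in dKO cells with cytokines, against 1 and 1 count in WT cells with cytokines. Without cytokines it had 850 and 456 counts (38.0 and 19 CPM) in dKO cells, against 16 and 58 counts (0.591 and 1.96 CPM) in WT cells. Every dKO library exceeded every WT library of the same treatment. Without cytokines Vegfd was 22.1-fold higher in dKO cells (4.47 ± 0.60, adjusted p = 0.00661, edgeR). This log2 fold change was 5.58 without WT replicate 2, 3.85 without WT replicate 1 and 3.88 without dKO replicate 1, all past the threshold. With cytokines the summed counts of 105 in dKO and 2 in WT cells gave a ratio of 56.6 after scaling, with a 95% counting interval of 15.3 to 474 (adjusted p = 0.00767, edgeR). That call was lost without WT replicate 1 (adjusted p = 0.0577) or WT replicate 2 (adjusted p = 0.0555).

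Vegfb (ENSMUSG00000024962, minus strand of chromosome 19, 6982473 to 6987651), a ligand of Flt1 linked to lipid uptake, had 49.5 and 55.2 CPM in dKO cells with cytokines, against 48.7 and 41.5 CPM in WT cells with cytokines. It had 63.4 and 61.3 CPM in dKO cells without cytokines, against 53.3 and 54.7 CPM in WT cells. Its 8 libraries spanned the narrowest fold range of the 10 members, and the dKO libraries were above the WT libraries by a small margin in each treatment. The log2 difference was 0.22 with cytokines (95% interval -0.05 to 0.48, adjusted p = 0.165, edgeR) and 0.21 without (-0.05 to 0.47, adjusted p = 0.201).

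Pgf (ENSMUSG00000004791, minus strand of chromosome 12, 85166635 to 85177790), placental growth factor, had 25.6 and 178 CPM in dKO cells with cytokines, against 118 and 198 CPM in WT cells with cytokines. Without cytokines it had 20.2 and 119 CPM in dKO cells, against 134 and 153 CPM in WT cells. The 2 dKO replicates differed 6.97-fold with and 5.86-fold without cytokines, replicate 1 being low both times, and with cytokines dKO replicate 2 lay within the WT range. The log2 difference of -0.63 with cytokines (95% interval -3.24 to 1.97, adjusted p = 0.667, edgeR) and of -1.05 without (-3.67 to 1.58, adjusted p = 0.503) did not pass the test.

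Per kilobase of exon, which puts genes of different length on 1 scale, the 5 ligand genes together reached 1071 and 718 CPM per kb in dKO cells with cytokines and 946 and 613 without, against 177 and 206 in WT cells with cytokines and 163 and 162 without. Vegfa made up 58.9% to 69.9% of that sum in the 4 dKO libraries and 36.8% to 47.8% in the 4 WT libraries. Vegfc made up 23.7% to 26.9% in dKO libraries and 8.79% to 12.1% in WT libraries. Pgf took 0.738% and 0.822% in dKO replicate 1 and 6.66% and 8.55% in dKO replicate 2, against 23% to 33.2% in WT libraries. Vegfb took 2.88% to 6.23% in dKO libraries and 12.6% to 21% in WT libraries. Vegfa and Vegfc thus made up most of the ligand transcripts in dKO cells, and Vegfa and Pgf in WT cells. In the order of levels of the 10 members, Vegfa was first in all 4 groups, followed in dKO cells by Vegfc without overlap of the libraries and in WT cells by Nrp2 without overlap. Nrp2 and Pgf, next in order in WT cells, overlapped in both treatments, and Vegfd or Kdr came last in each group.

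**Figure D2:**
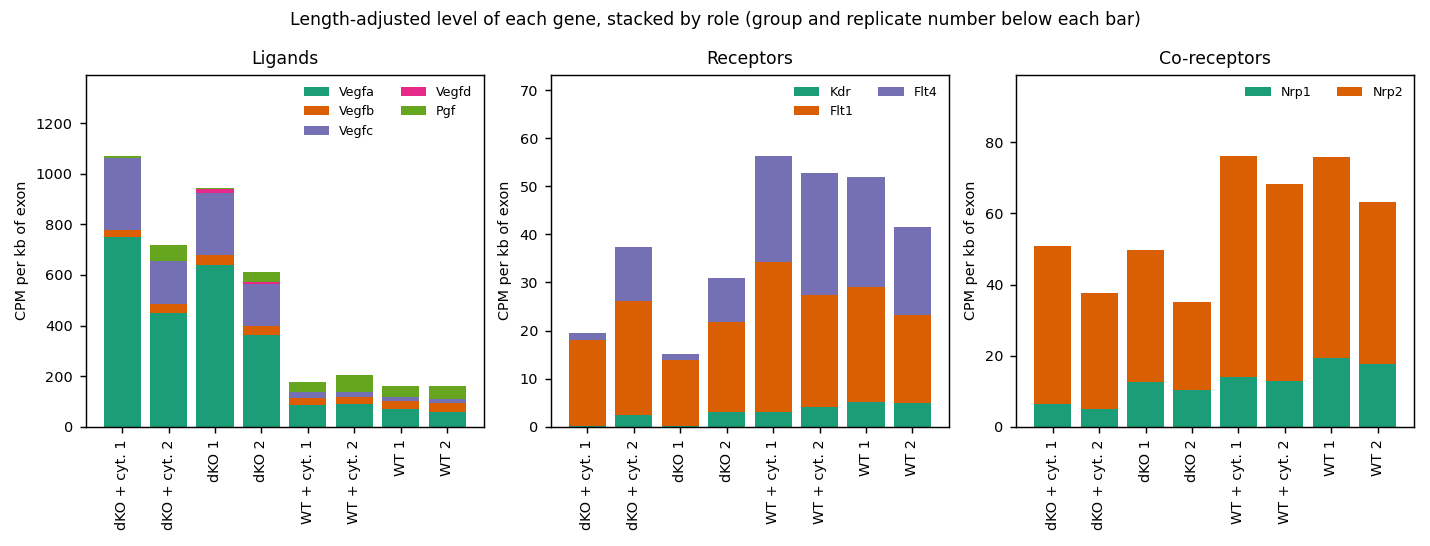
Level in CPM per kb of exon (linear axis from 0) of the ligand, receptor and co-receptor genes, stacked in 1 bar per library. Ligand bars reach 613 to 1071 in dKO libraries and 162 to 206 in WT libraries, whereas receptor bars reach 15.0 to 37.5 in dKO libraries and 41.6 to 56.3 in WT libraries.

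Kdr (ENSMUSG00000062960, minus strand of chromosome 5, 75932827 to 75978458), the main signalling receptor for Vegfa, had 1.04 and 22.1 CPM in dKO cells with cytokines, against 28.4 and 37.5 CPM in WT cells with cytokines. Untreated dKO cells had 1.25 and 27.3 CPM, against 47.1 and 44.4 CPM in untreated WT cells. All dKO libraries lay below all WT libraries, but the dKO replicates differed from each other 21.1-fold with and 21.8-fold without cytokines. The log2 difference was -1.51 ± 1.51 with cytokines (adjusted p = 0.466, edgeR) and -1.68 ± 1.51 without (adjusted p = 0.446), neither past the test. With both dKO replicate 2 libraries left out, the log2 difference of Kdr was -4.96 with cytokines and -5.20 without. With both dKO replicate 1 libraries left out instead, the difference was -0.58 with cytokines and -0.74 without. This split was added after seeing the data. It leaves 1 library in each dKO group and cannot measure the spread of dKO cells, so only effect sizes are given.

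Flt4 (ENSMUSG00000020357, plus strand of chromosome 11, 49609263 to 49652739), the receptor for Vegfc and Vegfd, had 10.9 and 92.2 CPM in dKO cells with cytokines, against 182 and 209 CPM in WT cells with cytokines. Without cytokines it had 9.03 and 75.2 CPM in dKO cells, against 188 and 152 CPM in WT cells. The dKO libraries lay below the WT libraries throughout, and dKO replicate 2 exceeded replicate 1 by 8.42-fold with and 8.33-fold without cytokines. The log2 difference was -1.92 ± 1.20 with cytokines (adjusted p = 0.251, edgeR) and -2.01 ± 1.20 without (adjusted p = 0.263). The difference was -4.15 with and -4.25 without cytokines when both dKO replicate 2 libraries were left out. It was -1.09 and -1.17 with both dKO replicate 1 libraries left out. Either split leaves 1 library in each dKO group, so only effect sizes are given.

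Flt1 (ENSMUSG00000029648, minus strand of chromosome 5, 147561604 to 147726011), the high-affinity receptor and decoy, had 243 and 321 CPM in dKO cells with cytokines, against 420 and 314 CPM in WT cells with cytokines. It had 186 and 254 CPM in dKO cells without cytokines, against 323 and 247 CPM in WT cells. The groups overlapped in both treatments, and Flt1 was the only receptor gene of the 3 for which they did. Its log2 difference was -0.38 with cytokines (95% interval -0.97 to 0.21, adjusted p = 0.26, edgeR) and -0.37 without (-0.96 to 0.21, adjusted p = 0.298). Gene counts do not separate the membrane form of Flt1 from its secreted form.

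Kdr, Flt4 and Pgf shared the gap between the dKO replicates. Of all tested genes, 2.03% (319) were at least 4-fold higher in dKO replicate 2 than in replicate 1 in both treatments, and Kdr, Flt4 and Pgf were among them; at 8-fold the share was 1.21% (190), with Kdr and Flt4. With both dKO replicate 2 libraries left out, the log2 difference of Pgf was -2.62 with cytokines and -2.84 without. With both replicate 1 libraries left out the difference was 0.17 and -0.27. Only effect sizes are given, as either split leaves 1 library in each dKO group. The endothelial markers Cdh5 (VE-cadherin) and Pecam1 (CD31), on which cells were sorted, showed the same direction: Cdh5 had 290 and 600 CPM in dKO cells with cytokines and 163 and 587 CPM without, and Pecam1 had 340 and 555 CPM with and 277 and 636 CPM without. Erg, Fli1 and the endothelial sum moved with these receptor levels, and their part in the gap was not tested.

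As a share of the 3 receptor genes per kilobase, Flt1 made up 92.6% and 63.6% in dKO cells with cytokines and 91.8% and 60.7% without, against 55.2% and 44.0% in WT cells with cytokines and 46.0% and 43.9% without. The ratio of Flt1 to Kdr, both per kilobase, was 156 and 9.73 in dKO cells with cytokines and 99.6 and 6.22 without, against 9.91 and 5.61 in WT cells with cytokines and 4.59 and 3.72 without. Flt1 was the largest receptor component in every dKO library, by the widest margin in replicate 1, while in WT libraries the ratio of Flt1 to Flt4 was 1.41 in replicate 1 with cytokines and 0.915 to 1.05 in the other 3, and Kdr stayed between 5.57% and 11.8%. These ratios are descriptions of single libraries and carry no test.

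Nrp1 (ENSMUSG00000025810, plus strand of chromosome 8, 128358604 to 128503363), co-receptor of Vegfa and of class 3 semaphorins, had 61.7 and 49.5 CPM in dKO cells with cytokines, against 137 and 125 CPM in WT cells with cytokines. Its level without cytokines was 122 and 101 CPM in dKO cells, against 188 and 173 CPM in WT cells. The groups did not overlap, and the dKO replicates were close to each other, unlike those of Kdr and Flt4. Nrp1 was 2.36-fold lower in dKO cells with cytokines (-1.24 ± 0.15 on the log2 scale, adjusted p = 0.00332, edgeR) and 1.62-fold lower without (-0.69 ± 0.15, adjusted p = 0.021). The call without cytokines was lost without dKO replicate 2 (adjusted p = 0.0588), WT replicate 1 (0.115) or WT replicate 2 (0.0865), whereas the call with cytokines held without each library.

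Nrp2 (ENSMUSG00000025969, plus strand of chromosome 1, 62703285 to 62818695), the co-receptor that pairs with Flt4 for Vegfc, had 526 and 385 CPM in dKO cells with cytokines, against 736 and 658 CPM in WT cells with cytokines. It had 440 and 295 CPM in dKO cells without cytokines, against 670 and 539 CPM in WT cells. Every dKO library was below every WT library of its treatment, and dKO replicate 2 was the lowest in each. The log2 difference of -0.61 with cytokines (95% interval -1.19 to -0.03, adjusted p = 0.0912, edgeR) and -0.72 without (-1.30 to -0.14, adjusted p = 0.0751) did not pass after adjustment, while DESeq2, which called 37.2% and 27% of genes in these comparisons, called both lower (adjusted p = 0.0391 and 0.0181). Among the 10 members only Nrp1 shares exon bases with another annotated gene, 0.818% with Mir1903, which was listed at 0 counts.

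**Figure D3:**
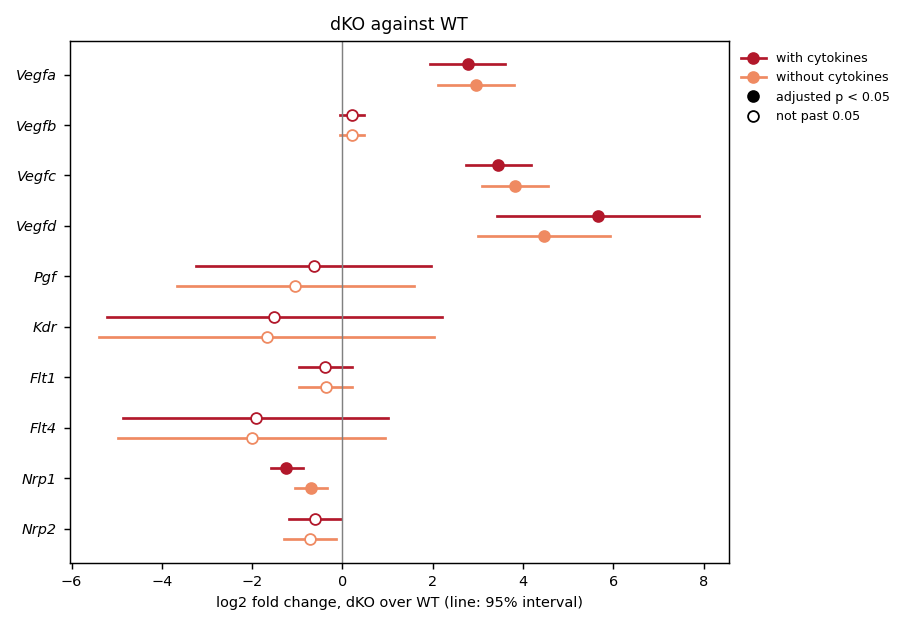
Log2 fold change of each member, dKO over WT, with its 95% interval, with cytokines (upper, dark) and without (lower, light); filled points passed an adjusted p of 0.05. Vegfa, Vegfc and Vegfd lie between 2.77 and 5.66, Nrp1 lies at -1.24 and -0.69, and the intervals of Kdr, Flt4 and Pgf cross 0 widely.

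By edgeR the cytokines changed 2 members in dKO cells and 1 in WT cells. In dKO cells Vegfd and Nrp1 fell and no member rose, where 2.06% of all tested genes fell and 3.5% rose (5.55% in either direction). In WT cells Vegfd fell and no member rose, where 7.69% of tested genes fell and 9.72% rose (17.4% in either direction). With the replicate number taken as a block within each genotype, 4 members were called in dKO cells and 6 in WT cells, where 24% and 37.9% of tested genes were called, and DESeq2 called 2 in each, where it called 12% and 21.1%. Treated and untreated libraries did not overlap for 0 members that were higher and 3 that were lower in dKO cells, against 24.7% and 24.8% of tested genes, and for 2 and 4 in WT cells, against 34.3% and 33.9%. The median log2 fold change of the members was 0.20 in dKO and 0.17 in WT cells, beside -0.01 in both over all tested genes.

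Vegfd was 12.1-fold lower in dKO cells with cytokines than without (2.5 and 2.21 CPM against 38.0 and 19 CPM; -3.59 ± 0.58, adjusted p = 0.0253, edgeR). In WT cells the 2 summed counts with cytokines against 74 without gave a ratio of 31.4 for untreated over treated, with a 95% counting interval of 8.39 to 264 (adjusted p = 0.0228, edgeR). Treated libraries lay below untreated ones in both genotypes. The dKO call was lost without either treated dKO replicate (adjusted p = 0.126 without replicate 1 and 0.0908 without replicate 2), untreated dKO replicate 1 (0.0873) or either treated WT replicate (0.0637 and 0.0662). The WT call was lost without treated replicate 1 (0.133), treated replicate 2 (0.126) or untreated replicate 2 (0.0725, with a log2 fold change of -3.67). Its log2 fold change was -5.39 without untreated replicate 1. With dKO replicate 1 of the untreated group left out the dKO value was -3.01. The dKO call was also lost with only the 4 dKO libraries in the fit (adjusted p = 0.107) and with both dKO libraries of number 1 (0.136) or of number 2 (0.0532) left out.

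Nrp1 was 2.01-fold lower in dKO cells with cytokines than without and fell by 1.00 ± 0.15 on the log2 scale (SE, adjusted p = 0.0207, edgeR), replicate by replicate 1.99-fold and 2.03-fold lower. In WT cells it was 1.37-fold and 1.38-fold lower in replicates 1 and 2, a log2 difference of -0.46 ± 0.15 that did not pass (adjusted p = 0.0769) and passed with the replicate block (adjusted p = 0.00216), with only the 4 WT libraries in the fit (0.0144), with no filter on low counts (0.0477) and by DESeq2 (0.0496). The dKO call was lost without untreated dKO replicate 1 (adjusted p = 0.0838), treated WT replicate 2 (0.0504), untreated WT replicate 1 (0.0593) or untreated WT replicate 2 (0.059), and with only the 4 dKO libraries in the fit (0.146). The difference between the cytokine effects in dKO and in WT cells was -0.54 ± 0.21 for Nrp1 (adjusted p = 0.432, edgeR), and -0.54 ± 0.11 with the replicate block (adjusted p = 0.0283). By edgeR without the block, 0 members and 0% of all tested genes passed the test of that difference, with 1 member at an unadjusted p under 0.05; DESeq2 called 0 members and the block called 1, Nrp1, where 2.77% and 6.03% of genes were called.

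The other 4 ligand genes did not pass the test for cytokines in the fit over all 8 libraries. Vegfa was 1.17-fold and 1.25-fold higher with cytokines in dKO replicates 1 and 2 and 1.22-fold and 1.53-fold higher in WT replicates 1 and 2, with log2 differences of 0.26 (adjusted p = 0.694, edgeR) and 0.45 (adjusted p = 0.393). Vegfc was 1.15-fold and 1.03-fold higher in the dKO replicates and 1.49-fold and 1.36-fold higher in the WT replicates, with differences of 0.14 (adjusted p = 0.808) and 0.51 (adjusted p = 0.25). With the replicate block the WT values passed for Vegfa (adjusted p = 0.016) and Vegfc (adjusted p = 0.00361) and the dKO values did not. The WT values passed also without a block when only the 4 WT libraries were fitted (adjusted p = 0.0311 for Vegfa and 0.0101 for Vegfc), and with both dKO libraries of 1 number left out (0.0346 and 0.0437 for Vegfa, 0.00855 and 0.00952 for Vegfc). Vegfb was lower with cytokines in all 4 pairs of libraries, by -0.25 in dKO cells (adjusted p = 0.225) and -0.26 in WT cells (adjusted p = 0.15), and Pgf differed by 0.55 in dKO cells (adjusted p = 0.811) and 0.14 in WT cells (adjusted p = 0.948).

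Among the receptors, Flt1 was higher with cytokines by 0.36 in dKO cells (adjusted p = 0.438, edgeR) and 0.37 in WT cells (adjusted p = 0.349), and both passed with the replicate block (adjusted p = 0.0156 and 0.00947). Kdr differed by -0.31 in dKO cells (adjusted p = 0.933) and -0.48 in WT cells (adjusted p = 0.862), of which the WT value passed with the block (adjusted p = 0.0174). Flt4 differed by 0.29 in dKO cells (adjusted p = 0.916) and 0.20 in WT cells (adjusted p = 0.931), with no call under the block. Nrp2 differed by 0.31 in dKO cells (adjusted p = 0.502), which passed with the block (adjusted p = 0.0418), and by 0.21 in WT cells (adjusted p = 0.604). The shares of Nrp1 among the co-receptor transcripts per kilobase were 12.4% and 13.5% in dKO cells with cytokines and 25.2% and 29.2% without, against 18.3% and 18.7% in WT cells with cytokines and 25.3% and 28.0% without. The neuropilin mix of untreated cells was thus alike in range in both genotypes, and Nrp2 held a larger share in every treated library.

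**Figure D4:**
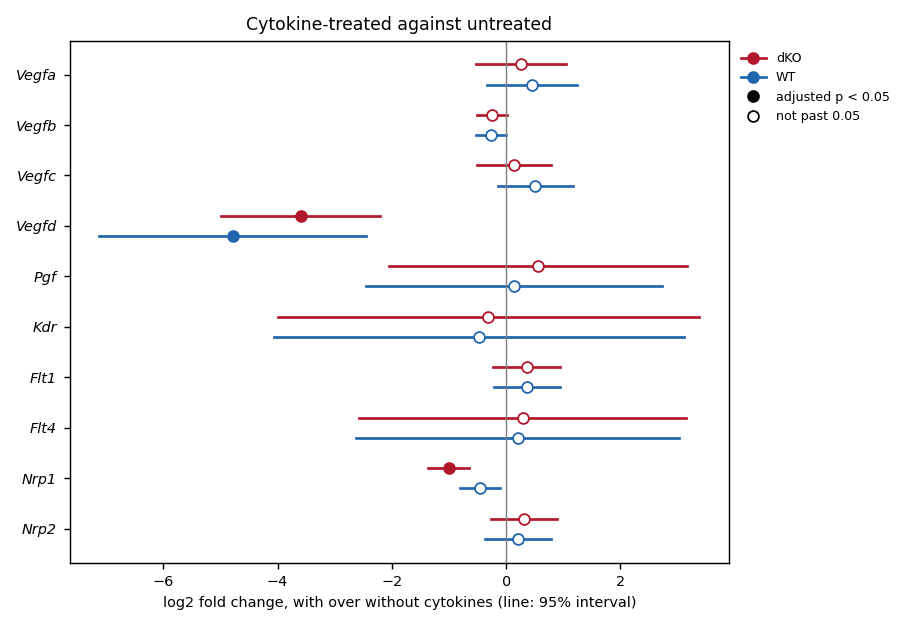
Log2 fold change of each member, with over without cytokines, with its 95% interval, in dKO cells (upper, red) and WT cells (lower, blue); filled points passed an adjusted p of 0.05. Vegfd lies at -3.59 in dKO and -4.78 in WT cells, Nrp1 is filled in dKO cells only, and the remaining members lie between -0.48 and 0.55.

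The genes whose levels followed each member most closely were taken as the 3 with the highest Pearson correlation of log2 CPM over the 8 libraries, among tested genes with a mean of at least 10 CPM. The libraries fall into 4 groups and like-numbered libraries of a genotype deviate alike, so these values describe shared patterns over the same 8 points and carry no test. Kdr was followed by Sox18 (0.998), Robo4 (0.997) and Ushbp1 (0.996); Sox18 is an endothelial transcription factor and Robo4 an endothelial guidance receptor. Sox18 had 1.04 and 65.5 CPM in dKO cells with cytokines and 1.07 and 84.5 CPM without, against 115 and 160 CPM in WT cells with cytokines and 144 and 172 CPM without, with the gap between dKO replicates in the same direction as for Kdr. Flt4 was followed by Smad1 (0.998), a transducer of BMP signals, Grap (0.996) and Chst7 (0.993), and Pgf by Notch4 (0.984), an endothelial Notch receptor, Igfbp3 (0.984) and N4bp3 (0.982). Vegfa was followed by the acute-phase gene Saa2 (0.998), the procollagen protease Bmp1 (0.997) and the phosphatase Ptpn2 (0.997), and Vegfc by Nbl1 (0.998), Stxbp6 (0.998) and Zfp687 (0.996). Saa2 had 8.9 to 62.1 CPM in dKO libraries but only 0.0337 to 0.176 CPM, a few reads, in WT libraries. A high correlation does not mean a change of like size: Zfp687 ran from 29.7 to 47.2 CPM where Vegfc ran from 35.1 to 691 CPM. Vegfd was followed by Pmm1 (0.997), Igf2r (0.990) and N4bp2l1 (0.986), Vegfb by Naa80 (0.974), Tango2 (0.967) and Nynrin (0.964), and Flt1 by Rexo1 (0.983), Ripk3 (0.971) and Unc45a (0.959). Nrp1 was followed by C1qtnf1 (0.991), Apmap (0.989) and Idh3b (0.982), and Nrp2 by Fgd6 (0.972), Lamp1 (0.972) and Arhgef12 (0.967).

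Other genes of the pathway were counted in 6 lists of 123 genes, of which 122 were tested; Ccbe1, a cofactor of Vegfc maturation, was too low. Between dKO and WT cells 19 of the 122 rose and 24 fell with cytokines, and 13 rose and 21 fell without, with median log2 fold changes of -0.23 and -0.28, beside 0.01 and 0.02 over all tested genes. The shares called, 35.2% with cytokines and 27.9% without, were near the 34% and 23% of all tested genes. The same background applies to each list. With cytokines the count of 43 was 13, 18 and 19 without WT replicate 1, WT replicate 2 and dKO replicate 1. Without cytokines the count of 34 was 4 and 5 without WT replicates 1 and 2, 10 without dKO replicate 1, and 19 without either WT library treated with cytokines.

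Downstream signalling genes (41) held 2 that rose and 12 that fell with cytokines and 3 that rose and 9 that fell without, 34.1% and 29.3% of the list. Prkd2, a protein kinase D that acts downstream of Kdr, had 58.1 and 81.8 CPM in dKO cells with cytokines, against 187 and 194 CPM in WT cells with cytokines. Its log2 fold change was -1.45 (adjusted p = 0.0256, edgeR) with cytokines and -1.39 (adjusted p = 0.0387) without. Iqgap1, a scaffold that binds Kdr, had 154 and 242 CPM in dKO cells with cytokines, against 699 and 640 CPM in WT cells with cytokines, and fell by 1.75 (adjusted p = 0.00381). Pik3r1, the regulatory subunit of phosphoinositide 3-kinase, rose by 1.49 without cytokines (adjusted p = 0.00977).

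Of the receptor partners and trafficking genes (26), 4 rose and 7 fell with cytokines and 2 rose and 6 fell without (42.3% and 30.8% called). Emcn, a sialomucin reported to affect Kdr uptake, had 193 and 264 CPM in dKO cells with cytokines and 223 and 313 CPM without, against 654 and 718 CPM in WT cells with cytokines and 867 and 1082 CPM without. It fell by 1.59 with cytokines (adjusted p = 0.00528, edgeR) and by 1.86 without (adjusted p = 0.0052). Epn2, an endocytic adaptor, rose by 0.97 with cytokines (adjusted p = 0.0247), while the integrin subunit gene Itgb3 fell by 1.13 (adjusted p = 0.0152). Itgav, which encodes the partner subunit of Itgb3, rose by 1.27 without cytokines (adjusted p = 0.00487), as did Efnb2, an ephrin tied to receptor uptake, by 0.80 (adjusted p = 0.0293).

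Genes known to respond to VEGF (23) gave 5 that rose and 3 that fell with cytokines and 2 and 3 without (34.8% and 21.7% called). With cytokines Egr2 rose by 2.51 (adjusted p = 0.0437, edgeR), Nr4a2 by 2.10 (adjusted p = 0.00388) and Unc5b, a netrin receptor of tip cells, by 1.90 (adjusted p = 0.00638). Without cytokines Unc5b rose by 1.49 (adjusted p = 0.0173) and the immediate-early gene Egr1 by 1.10 (adjusted p = 0.0331), while Plvap, a protein of endothelial fenestrae, fell by 1.21 (adjusted p = 0.0466). The list thus moved in both directions, with a median log2 fold change of 0.12 with cytokines and -0.05 without. These medians hide that the dKO replicates differed widely for some genes of the list. Dll4 had 1.64 and 60.3 CPM in dKO cells with cytokines and 1.61 and 68.2 CPM without. Esm1 had 1.82 and 37.8 CPM with and 0.76 and 68.5 CPM without. Others showed no such gap, among them Unc5b with 160 and 173 CPM and Apln with 146 and 147 CPM in dKO cells with cytokines.

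Genes of Vegfc processing and lymphatic identity (10, of which 9 tested) gave 4 that rose and 1 that fell with cytokines and 1 and 1 without (55.6% and 22.2% of 9 genes). Adamts2, a procollagen protease whose family cleaves pro-Vegfc, had 59.0 and 55.0 CPM in dKO cells with cytokines and 65.3 and 49.6 CPM without, against 15.6 and 13.8 CPM in WT cells with cytokines and 5.39 and 5.56 CPM without. It rose by 1.95 with cytokines (adjusted p = 0.00127, edgeR) and by 3.39 without (adjusted p = 0.000629). Pcsk5, a proprotein convertase, had 56.3 and 37.5 CPM in dKO cells with cytokines and 138 and 110 CPM without, against 20.8 and 23.5 CPM in WT cells with cytokines and 274 and 223 CPM without. It rose by 1.08 with cytokines (adjusted p = 0.0147) and fell by 1.00 without (adjusted p = 0.0243); the difference between these was 2.08 ± 0.32 and did not pass (adjusted p = 0.18). Adamts14, of the same protease family as Adamts2, rose by 1.47 with cytokines (adjusted p = 0.0235).

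Oxygen-sensing genes (10), most of which act on Vegfa through hypoxia-inducible factors, gave 2 that rose and 1 that fell with cytokines and 3 and 0 without (30% called in each treatment). Egln3, a prolyl hydroxylase that is itself a hypoxia-inducible gene, had 1633 and 1580 CPM in dKO cells with cytokines and 989 and 883 CPM without, against 460 and 500 CPM in WT cells with cytokines and 230 and 231 CPM without. It rose by 1.74 with cytokines (adjusted p = 0.000946, edgeR) and by 2.02 without (adjusted p = 0.000773). Epas1 (HIF-2 alpha) rose by 0.81 (adjusted p = 0.0172) and Hif1an fell by 0.52 (adjusted p = 0.0161) with cytokines. Vhl and Egln1, which target hypoxia-inducible factors for breakdown, rose without cytokines by 0.56 (adjusted p = 0.0301) and 0.54 (adjusted p = 0.0273).

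Transcription factors known to act on the receptor genes (13) gave 2 that rose and 0 that fell with cytokines, Lmo2 by 0.89 (adjusted p = 0.0185, edgeR) and Foxc1 by 0.85 (adjusted p = 0.0478). Lmo2 lay the other way in untreated cells, with 47.2 and 72.1 CPM in dKO cells, against 88.6 and 101 CPM in WT cells. Without cytokines 2 rose and 2 fell, among them Foxc1 with 1.05 (adjusted p = 0.0337), Tal1 with 0.67 (adjusted p = 0.0433) and the ETS gene Ets2 with -0.81 (adjusted p = 0.0401). The shares called were 15.4% with cytokines and 30.8% without.

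**Figure D5:**
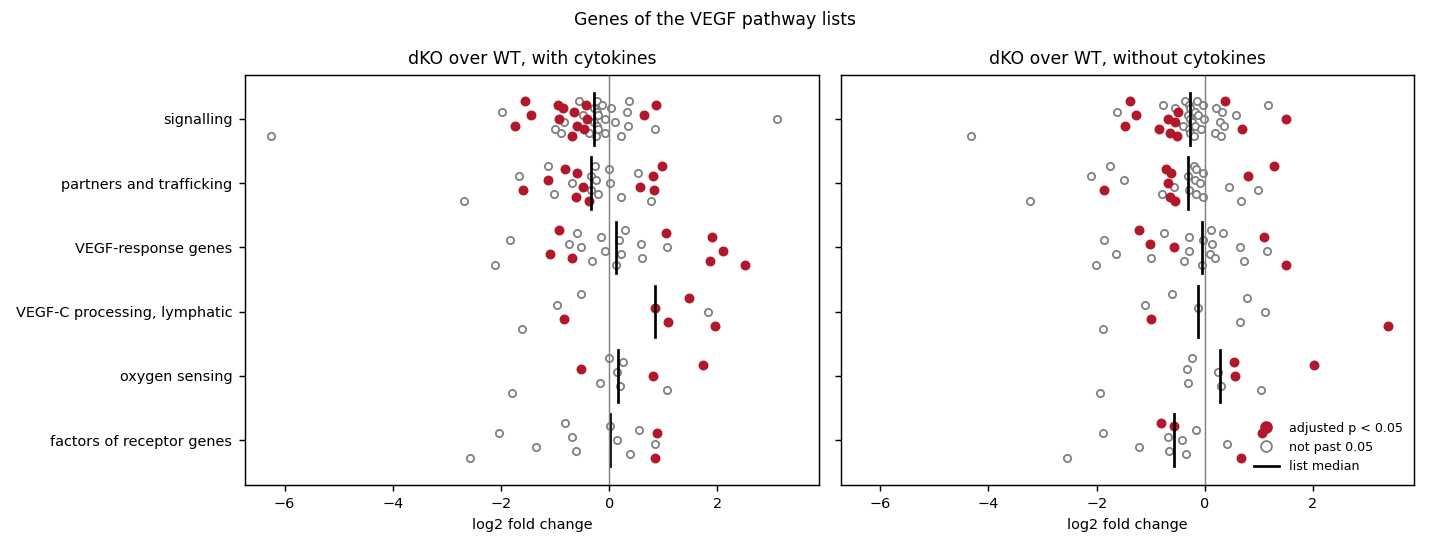
Log2 fold change, dKO over WT, of the 122 tested genes in 6 pathway lists with cytokines (left) and without (right); each point is a gene, red points passed an adjusted p of 0.05 and black bars are list medians. Red points lie on both sides of 0 in most lists, with signalling mostly below 0 at 12 of 14 with cytokines.

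With cytokines against without, 9 of the 122 pathway genes rose and 5 fell in dKO cells, and 19 rose and 9 fell in WT cells. These are 11.5% and 23% of the pathway genes, where 5.55% and 17.4% of all tested genes were called. With the replicate block 46 and 68 were called, where 24% and 37.9% of all genes were, and with only the 4 libraries compared 0 and 60 were called. The dKO count of 14 was 2 to 9 and the WT count of 28 was 8 to 12 without each library that moved it by over 1.5 times: for dKO all but untreated dKO replicate 2, and for WT the 4 WT libraries. Itgb3, the integrin subunit, had 413 and 643 CPM in dKO cells with cytokines against 143 and 199 CPM without, and 1172 and 1134 CPM in WT cells with cytokines against 173 and 178 CPM without. It rose by 1.63 in dKO cells (adjusted p = 0.0209, edgeR) and by 2.71 in WT cells (adjusted p = 0.00278), and Itgav rose by 1.02 (adjusted p = 0.0212) and 1.48 (adjusted p = 0.00367). Stx6, a syntaxin of Kdr recycling, rose by 0.70 in dKO cells (adjusted p = 0.0239) and 1.21 in WT cells (adjusted p = 0.00279), and Egln3 by 0.78 (adjusted p = 0.0192) and 1.06 (adjusted p = 0.00367). Pcsk5 fell, with log2 fold changes of -1.40 in dKO cells (adjusted p = 0.0243) and -3.49 in WT cells (adjusted p = 0.00126). Hspb1, a small heat-shock protein phosphorylated in VEGF signalling, fell too, with -1.01 (adjusted p = 0.0488) and -1.09 (adjusted p = 0.0195). Lmo2 rose by 2.43 in dKO cells (adjusted p = 0.00578) and 0.88 in WT cells (adjusted p = 0.0313), and Adamts14 rose by 2.04 in dKO cells (adjusted p = 0.0326). Of the 23 VEGF-response genes, 9 had an unadjusted p under 0.05 in dKO cells and 0 passed after adjustment by edgeR; Fscn1, the one with the highest mean CPM, differed by 0.60 (adjusted p = 0.16). In WT cells Fscn1, an actin-bundling protein, rose by 1.64 (adjusted p = 0.00665).

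Mapkapk2, a kinase downstream of p38, had 510 and 488 CPM in dKO cells with cytokines against 232 and 278 CPM without, and rose by 0.97 (adjusted p = 0.0129, edgeR). Shb, an adaptor that binds Kdr, had 51.6 and 50.4 CPM in dKO cells with cytokines against 110 and 82.8 CPM without, and fell by 0.92 (adjusted p = 0.0278). In WT cells the adaptor gene Nck1 rose by 1.10 (adjusted p = 0.00402), Iqgap1 by 1.14 (adjusted p = 0.0191), Adamts2 by 1.42 (adjusted p = 0.00402) and Nr4a3, a nuclear receptor of low level here, by 1.96 (adjusted p = 0.0272). The tissue factor gene F3 fell by 0.86 in WT cells (adjusted p = 0.0432), the convertase gene Furin by 0.87 (adjusted p = 0.0169) and the forkhead factor gene Foxo1 by 0.64 (adjusted p = 0.022). Hif1a had 745 and 870 CPM in WT cells with cytokines against 535 and 551 CPM without and rose by 0.57 (adjusted p = 0.03). Epas1 had 271 and 211 CPM in WT cells with cytokines against 498 and 437 CPM without and fell by 0.96 (adjusted p = 0.0176).

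No pathway gene passed the test of the difference between the cytokine effects by edgeR (0 of 122), where 0% of all tested genes passed. DESeq2 called 6 and the replicate block 17, where 2.77% and 6.03% of all tested genes were called. By edgeR 23 pathway genes had an unadjusted p under 0.05, for which the share of all tested genes is not given here. In the lists' most abundant genes that difference, dKO minus WT, was -0.92 ± 0.31 for Iqgap1 (adjusted p = 0.375, edgeR) and -1.04 ± 0.30 for Fscn1 (adjusted p = 0.306). It was -0.28 ± 0.16 for Egln3 (adjusted p = 0.598), 0.09 ± 0.86 for Cdh5 (0.99) and -0.27 ± 0.33 for Nr2f2 (0.827). Nr2f2 is a factor of venous and lymphatic identity.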

How the data were processed

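RNA-seq of 8 libraries of sorted, cultured liver ECs (4 groups of 2) was analysed from 1 table of whole-number gene counts deposited by the authors, 52636 Ensembl genes, of which 52403 were given a symbol. Reads were checked with FastQC 0.11.5 and aligned with STAR 2.7.6a to GRCm38, per the submitters' processing notes; the counting tool, its annotation, strand setting and handling of multiply mapped reads: not given in the sources used here. The labels name an unstranded and a stranded kit without saying which library used which, so a gene and its antisense partner cannot be told apart.

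From the deposited counts, genes were filtered with filterByExpr (15698 kept), scaled by TMM and fitted by edgeR 4.0.16 (R 4.3.3) with robust quasi-likelihood over all 8 libraries, 1 coefficient a group, 4 residual degrees of freedom, with 5 two-sided contrasts and Benjamini-Hochberg adjustment over all tested genes at 0.05. CPM, CPM per kb (union exon length in GENCODE M21, GRCm38) and standard errors were computed here. Counting intervals (95%) cover counting error only; 3 counts correspond to 0.101 to 0.136 CPM per library.

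Deviations of like-numbered libraries from their group means correlated over genes at 0.69 within dKO and 0.43 within WT, so the numbers, which the labels share across treatments, were taken to pair libraries within a genotype; across genotypes the correlations were 0.02 to 0.13 and no pairing was taken. Named genes were the 10 members, Erg and Fli1, up to 3 called genes with the largest changes per list and comparison (mean of at least 1 CPM), or the most abundant where none passed, and 3 like-patterned genes per member. One gene that this rule names is not reported here. The members and lists were chosen with earlier results of these data known. Alternatives were RLE scaling, no filter, DESeq2 1.42.0, only the 4 libraries compared, the replicate block and each library left out (a library then alone in its group is assumed to vary like the others); leaving out both dKO libraries of 1 number was added after seeing the data. The code was tested on simulated data.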

Additional observations from a re-analysis of the deposited data

How the results depend on the processing

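Of 740 recomputed values of single members (10 members, 5 comparisons), 649 kept their direction and side of the threshold, 21 lost a call, 34 gained one and 36 turned sign, none of these on a called value; RLE scaling changed no call. With each library left out in turn, members called ran from 3 to 4 (dKO against WT, both treatments), 0 to 1 (cytokines in WT), 0 to 2 (cytokines in dKO) and 0 (difference between the effects); pathway genes from 4 to 41 (without cytokines), 13 to 53 (with), 8 to 32 (WT), 2 to 18 (dKO) and 0; all genes from 527 to 3783, 1621 to 5523, 413 to 2749, 130 to 731 and 0 to 41. Main counts over all genes were 3617, 5343, 2733, 872 and 0.

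With the replicate block, members called were 6 (cytokines in WT), 4 (dKO) and 1 (difference), pathway genes 68, 46 and 17, and all genes 5943, 3769 and 947. For dKO against WT, whose numbers are not paired, the block added Nrp2 (adjusted p = 0.0122 with cytokines, 0.0104 without) and changed no other member's call. With only the 4 libraries compared, pathway genes and all genes were 17 and 2266 (dKO against WT without cytokines), 60 and 4585 (WT, 4 members) and 0 and 1 (dKO, 0 members). DESeq2 gave 2 members in WT, 23 pathway genes and 1738 genes in dKO, and 6 and 372 for the difference; no filter gave 2 members in WT, and 2 pathway genes and 75 genes for the difference.

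With both dKO libraries of number 2 left out, members called were 7 and 7 (dKO against WT with and without cytokines), 4 (WT) and 1 (dKO), pathway genes 76, 69, 58, 28 and 10 (difference), and all genes 5602 (without cytokines), 4417, 1339 and 193. With number 1 left out they were 7 (without cytokines), 4 (WT) and 1 (dKO), pathway genes 59 and 8, and all genes 4409, 411 and 1 (difference). In these fits each dKO group held 1 library, so the spread came from the WT libraries alone. The counts therefore do not include the gap between dKO replicates. Only counts that moved by more than 1.5 times from the main count are listed for these fits. Where the count over all genes moved less, the member count stands without its background, and no excess of members is drawn from it. The cause of these moves was not tested.

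Sign turned for Pgf in dKO against WT with cytokines (0.17 without both dKO libraries of number 1; -2.62 to 0.17 over left-out libraries) and, for the difference, Vegfb (-0.07) and Flt1 (0.04) without number 2 and Flt1 (0.03) with no filter. Over left-out libraries log2 values ran from -0.28 to 0.45 (Pgf in WT); in dKO -0.15 to 0.73 (Vegfa), -0.27 to 0.46 (Vegfc), -1.44 to 2.33 (Pgf), -3.77 to 3.21 (Kdr) and -1.95 to 2.52 (Flt4); and for the difference -0.60 to 0.30 (Vegfa), -0.10 to 0.15 (Vegfb), -1.56 to 2.19 (Pgf), -3.28 to 3.68 (Kdr), -0.21 to 0.24 (Flt1), -2.13 to 2.31 (Flt4) and -0.15 to 0.44 (Nrp2). Depth limits Vegfd in WT cells with cytokines, at 1 count per library.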
